A study of Mus musculus with 5 samples.

Results

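Guanine nucleotide-binding proteins, adenylyl cyclases and a prostaglandin E2 receptor that together make cyclic AMP (cAMP) were followed in mouse epidermis treated on the skin with forskolin or with cAMP itself. The 9 genes were taken by their symbol from a deposited table of 21667 genes: the stimulatory alpha subunit gene Gnas, the inhibitory alpha subunit genes Gnai2 and Gnai3, the adenylyl cyclase genes Adcy3, Adcy4, Adcy6, Adcy7 and Adcy9, and the receptor gene Ptger4. The rule that picks them uses names only, but the set was drawn up with earlier results of these data known. All 9 were listed, and 8 reached 1 CPM (a read count scaled to its library's total) in at least 2 libraries and were tested among 13764 genes. Adcy4 did not. Ptger4 is the only receptor in the set, and Gnai2 and Gnai3 encode subunits that lower cyclase activity.

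In this pathway a ligand binds a receptor in the cell membrane, the receptor loads a G protein with GTP, and the released alpha subunit raises (Gs) or lowers (Gi) the activity of adenylyl cyclase, which turns ATP into cAMP. The cAMP then activates protein kinase A, which phosphorylates the transcription factor Creb. Forskolin, a plant diterpene, binds most membrane adenylyl cyclases directly and so does not need a receptor, whereas cAMP is the product of the cyclases. Whether the applied cAMP entered the cells cannot be seen from RNA levels. In skin, Gs signalling is known for restraining growth of basal keratinocytes and for acting on the hair cycle.

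RNA was sequenced from total epidermis of wildtype C57BL/6 males at postnatal day 49, shaved on the back. The study addressed how signalling through receptors, cAMP and Creb acts on the hair cycle. The control was 1 library labelled untreated. The labels do not say whether this mouse received the vehicle, a lotion with DMSO, in which the compounds were given. Forskolin at 10 µM was applied 3 times over 5 days and gave 2 libraries, and cAMP at 1.325 mM on the same schedule gave the other 2. The epidermis was freed by dissection and trypsin overnight, so it was a mixture of cells and not a sorted population. Whether the replicates came from different mice is not stated, and p-values therefore reflect spread among libraries that could be technical.

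The control library stood apart. Mitochondrial transcripts held 69.3% of its listed reads, against 43.1% to 58.0% in the treated libraries. Other genes, without pseudogenes and ribosomal RNA, held 7.90% against 25.9% to 38.0%, and 9791 genes reached 1 CPM against 12867 to 13551. With values as deposited the median tested gene was 1.69 (log2) higher with forskolin and 1.66 higher with cAMP. Median-of-ratios scaling, which sets the typical gene level between libraries, reduced these medians to 0.21 and 0.20, so the 8 tested genes are given on both scales. Estimated depths ran from 34200000 to 51700000 reads. Basal keratinocyte markers were found in every library, with 8 of 8 above the floor of 3 reads and a summed level of 1396 to 6220 CPM. The endothelial list summed to 1.95 to 6.41 CPM, with 8 of its 10 genes at or under the floor in the control. Suprabasal keratinocyte markers fell after scaling, 6 of 8 with forskolin and 7 of 8 with cAMP (medians -2.26 and -2.81). On that scale 934 and 995 of all 13764 tested genes were called lower. Fibroblast markers summed to 145 CPM in the control, 9.45 and 200 with forskolin, and 112 and 268 with cAMP. The part of these cells in the results was not tested. In such bulk tissue, fewer cells of a type and less RNA per cell cannot be told apart.

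All 8 tested genes lay above the control in both treated groups as deposited. After the second scaling 7 did so with forskolin and 4 with cAMP, and few of these differences passed the test. Adcy3 and Adcy9, with no control reads, reached the tested set through treated libraries only, so their direction was fixed in advance. Ptger4, at 0.344 CPM in the control, also passed the filter of 1 CPM through treated libraries only, so a rise was favoured in advance. By limma with Benjamini-Hochberg adjustment, 7 of the 8 tested genes rose with forskolin as deposited, where 66.7% of all tested genes were called and 66.3% were called higher. With cAMP 8 of 8 rose, where 65.6% of all tested genes were called and 65.1% were called higher. The median change of the 8 genes was 2.51 with forskolin and 1.58 with cAMP (log2), or 2.70 and 1.81 with the genes that had no control reads set at their lower bounds. After median-of-ratios scaling, Adcy3 and Ptger4 rose with forskolin, 2 of 8, where 21.7% of all tested genes were called and 14.9% were called higher. Only Adcy3 rose with cAMP on that scale, 1 of 8, where 22.7% were called and 15.4% were called higher. The medians of the 8 genes were then 0.75 and 0.11.

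**Figure D1:**
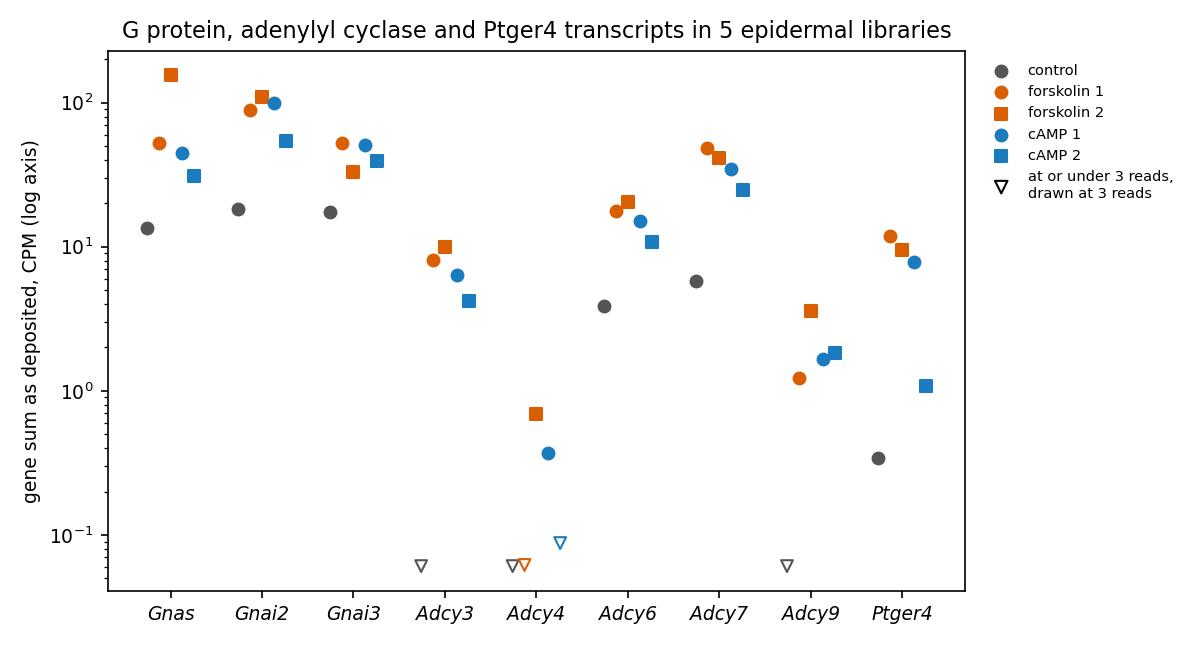
Level of each of the 9 genes in each library (CPM as deposited, log axis), with 1 point per library, colours for control, forskolin and cAMP, and open triangles for values at or under 3 reads, drawn at 3 reads. The control point is the lowest of the 5 for every gene apart from Adcy4, where the control and cAMP 2 are both at 0 reads, and Adcy3 and Adcy9 are at 0 reads in the control.

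Ptger4 (ENSMUSG00000039942, chromosome 15, 5206661 to 5244187 on the minus strand, GRCm38) encodes EP4, a prostaglandin E2 receptor that couples to Gs. It stood at 0.344 CPM in the control, at 11.8 and 9.42 CPM in forskolin 1 and 2, and at 7.86 and 1.08 CPM in cAMP 1 and 2. Both forskolin libraries were higher than both cAMP libraries, and cAMP 2 lay nearer the control than its own replicate. The control value rested on 17.0 estimated reads (95% Poisson interval 0.2005 to 0.551 CPM, counting error only), and cAMP 2 on 37.0. Its linear ratio to the control was 30.9 with forskolin and 13.0 with cAMP as deposited, and 7.34 and 2.73 after median-of-ratios scaling. By limma on log2(CPM + 1), the rise with forskolin was 3.10 (SE 0.61, adjusted p = 8.07e-06) as deposited and 2.09 (SE 0.56, adjusted p = 0.0138) after scaling. The forskolin call was lost with quantile normalization (1.58, limma adjusted p = 0.0701) and without a filter on low values (limma adjusted p = 0.0521). The rise with cAMP was 1.68 (SE 0.61, limma adjusted p = 0.0129) as deposited. After scaling the cAMP difference was 0.72 (SE 0.56, limma adjusted p = 0.369).

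The cAMP value of Ptger4 depended on which library was left out. Without cAMP 1 its difference from the control was 0.63 (limma adjusted p = 0.309), and the scaled difference was -0.06. Without cAMP 2 it was 2.72 (limma adjusted p = 0.000305), and 1.495 after scaling (limma adjusted p = 0.0571). In these fits the lone cAMP library was assumed to vary like the forskolin libraries. Levels of Ptger4 scaled by median-of-ratios were 1.06 CPM in the control, 8.37 and 7.18 in forskolin, and 4.80 and 0.971 in cAMP, so cAMP 2 lay just under the control on that scale. Langerhans cell and macrophage markers were 9 of 9 listed and all above the floor. As deposited they summed to 93.0 CPM in the control, 780 and 492 with forskolin, and 720 and 271 with cAMP. On that scale cAMP 2 was again the lowest treated library, as it also was for the basal, suprabasal, T cell and pan-leukocyte lists. After scaling, the pan-leukocyte list was lowest in cAMP 1 (159 CPM, against 166 in cAMP 2). The part of these cells in the Ptger4 result was not tested. Of the 2 coding models of Ptger4, Ptger4-002 was listed at 32.8% of their sum in every library, also where the gene rested on 17.0 or 37.0 reads. How reads were apportioned between the models is not given in the sources used here, so this share is not read as use of the models.

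Of all candidates with a mean of at least 8 CPM (6815 genes), those with a scaled profile close to that of Ptger4 over the 5 libraries included Plk3 and Rpl13, with root mean square differences of 0.19 and 0.27 (log2). Plk3, a polo-like kinase gene, stood at 1.11 CPM in the control, 22.4 and 20.4 with forskolin, and 18.6 and 4.80 with cAMP. The ribosomal protein gene Rpl13 shared the low value in cAMP 2, at 3.29 CPM.

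Genes for the making, transport or breakdown of prostaglandin E2, the ligand of EP4, formed a list of 8 tested genes. Hpgd, for breakdown, and Slco2a1, for uptake, are among them, so the counts do not measure supply. As deposited, 5 of 8 rose with forskolin and 3 of 8 with cAMP, none fell, and their median changes were 1.41 and 0.88, where 66.3% and 65.1% of all tested genes were called higher with medians of 1.69 and 1.66. After median-of-ratios scaling 1 rose and 1 fell with forskolin, 1 rose and 3 fell with cAMP, and the medians were -0.45 and -0.79. On that scale 14.9% and 15.4% of all tested genes were called higher, and the medians of all tested genes were 0.21 and 0.20. Of these 13764 genes, 934 and 995 were called lower. Abcc4, which exports prostaglandins and cyclic nucleotides from cells, was the riser on both scales. It stood at 0.992 CPM in the control, 14.8 and 14.5 with forskolin, and 10.5 and 16.4 with cAMP (limma, scaled: 1.54, adjusted p = 0.0261 and 1.41, adjusted p = 0.0372). Ptges2, a prostaglandin E synthase, stood at 1.13 CPM in the control and at 5.71 to 14.6 CPM in the 4 treated libraries, and its scaled differences did not pass (limma adjusted p = 0.411 and 0.228).

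Gnas (ENSMUSG00000027523, chromosome 2, 174285256 to 174346744 on the plus strand) encodes the alpha subunit of Gs, and its locus is known for imprinting and for several alternative first exons. The table listed 13.5 CPM in the control, 52.5 and 155 CPM in forskolin 1 and 2, and 44.8 and 30.7 CPM in cAMP 1 and 2. Forskolin 2 was the highest by far, while forskolin 1 was close to cAMP 1. The rise by limma was 2.65 (SE 0.58, adjusted p = 4.79e-05) with forskolin and 1.39 (SE 0.58, adjusted p = 0.0285) with cAMP as deposited. After scaling the differences were 0.66 (limma adjusted p = 0.342) and -0.58 (limma adjusted p = 0.413). Without forskolin 2, the difference with forskolin was 1.88 (limma adjusted p = 0.0497) as deposited and -0.16 (limma adjusted p = 0.861) after scaling. Without forskolin 1 it was 3.42 as deposited and 1.48 (limma adjusted p = 0.0137) after scaling, with 1 library left in each of the forskolin and control groups, so the spread came from the cAMP libraries and from other genes. With coding transcripts only, the as-deposited differences were 4.11 (limma adjusted p = 0.000232) with forskolin and 3.21 (limma adjusted p = 0.00207) with cAMP. The cAMP call did not hold without forskolin 1, forskolin 2 or cAMP 1 (limma adjusted p = 0.0893, 0.0818 and 0.12).

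A second gene model, Gm20721, lies on the other strand of the Gnas locus (chromosome 2, 174330319 to 174346712, 13 exons). Of its 1484 exonic bases, 1469 (99.0%) are also exonic in Gnas. The kit kept strand, per the labels, but whether the reads were assigned by strand is not given in the sources used here, so reads of Gnas and of Gm20721 cannot be told apart. Gm20721 stood at 36.0 CPM in the control, 124 and 39.9 CPM in forskolin 1 and 2, and 164 and 92.9 CPM in cAMP 1 and 2. It was low in forskolin 2, the library with the high Gnas value, and held 20.5% of the sum of both there against 70.3% to 78.6% in the other 4 libraries.

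The sum of Gnas and Gm20721 was 49.5 CPM in the control, 177 and 195 CPM with forskolin, and 209 and 124 CPM with cAMP. Forskolin 2 was no longer apart, and the forskolin values lay between the cAMP values. Tested as 1 gene, an alternative chosen after seeing the data, the sum rose by 1.89 (SE 0.60, limma adjusted p = 0.00413) with forskolin and by 1.68 (SE 0.60, limma adjusted p = 0.0104) with cAMP as deposited. After scaling the sum was 152 CPM in the control, 125 and 148 with forskolin, and 128 and 111 with cAMP, all 4 treated values below the control. The scaled differences were -0.16 (limma adjusted p = 0.789) and -0.35 (limma adjusted p = 0.529).

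The models within Gnas were divided as unevenly. Models that begin at the upstream start, led in the control by Gnas-001, which is annotated as a processed transcript, summed to 12.3 CPM in the control, 44.0 and 11.6 with forskolin, and 29.2 and 7.41 with cAMP. Models that begin at the downstream start, 2307 bases further on, are coding and summed to 0.693 CPM in the control, 5.26 and 138 with forskolin, and 13.8 and 23.3 with cAMP. The downstream models thus held 5.13% of Gnas in the control, 10.0% and 89.1% with forskolin, and 30.9% and 75.9% with cAMP, so the replicates within each treated group were far apart. This grouping of models was chosen after their values were seen. These models share exons with each other and with Gm20721, and how reads were apportioned among them is not given in the sources used here.

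**Figure D2:**
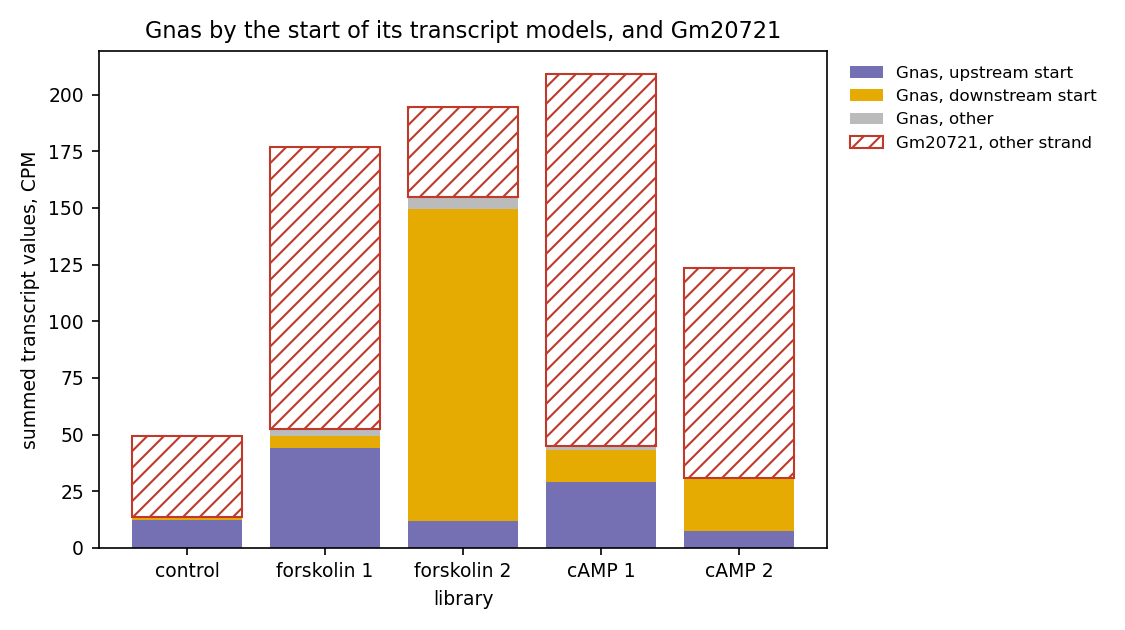
Stacked bars of summed transcript values (CPM as deposited, 1 bar per library) for Gnas models with the upstream start, the downstream start and other models, and for Gm20721 on the other strand (hatched). The downstream models fill most of the forskolin 2 bar (138 CPM), while Gm20721 fills most of each of the other 4 bars.

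The promoter windows of both Gnas starts are printed because the data separate models by start and because the study is about Creb, which binds the cAMP response element. Each window, from RefSeq on GRCm38.p6, holds 250 bases before and 50 bases after an annotated start, 5′ to 3′ on the plus strand. Capitals mark the letters CGTCA, which are part of the full element TGACGTCA; the upstream window is chr2:174327499-174327798 and the downstream window is chr2:174329756-174330055.
Gnas upstream: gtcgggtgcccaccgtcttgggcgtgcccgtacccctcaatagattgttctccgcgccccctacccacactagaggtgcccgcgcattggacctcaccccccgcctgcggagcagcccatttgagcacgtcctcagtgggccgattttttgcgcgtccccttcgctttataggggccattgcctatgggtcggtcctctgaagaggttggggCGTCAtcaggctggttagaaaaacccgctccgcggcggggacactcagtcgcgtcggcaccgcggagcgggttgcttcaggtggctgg
Gnas downstream: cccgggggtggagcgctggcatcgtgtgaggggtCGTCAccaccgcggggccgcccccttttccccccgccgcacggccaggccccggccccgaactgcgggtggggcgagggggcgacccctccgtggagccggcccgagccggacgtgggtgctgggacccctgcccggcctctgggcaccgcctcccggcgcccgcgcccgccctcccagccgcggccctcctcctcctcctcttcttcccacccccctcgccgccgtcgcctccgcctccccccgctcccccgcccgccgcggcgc

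In the upstream window CGTCA began 38 bases before the start, and in the downstream window 216 bases before it. RefSeq windows were matched for 7 of the 9 genes, 13 windows in all, and searched on both strands for TGACGTCA and for TGACG or CGTCA. None of the 13 held the full letters, which 1.79% of all 32851 windows held, and 6 held the partial letters, which 20.8% of all windows held. These 6 include 2 Gnas windows that overlap each other. No such letters were found in the windows of Ptger4, Adcy3 and Adcy4. The stretches around the other matches are given to show the letters in Adcy7 (window chr8:88282742-88283041, plus strand), Adcy9 (window chr16:4420449-4420748, minus strand) and Gnai3 (window chr3:108146103-108146402, minus strand, after the start), again with the match in capitals. A match of letters is a description of the window only.
Adcy7: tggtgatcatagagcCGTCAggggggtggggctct
Adcy9: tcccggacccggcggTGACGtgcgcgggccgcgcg
Gnai3: gggagctaggggagcTGACGgagaag

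Gnai2 (ENSMUSG00000032562, chromosome 9, 107614125 to 107635367 on the minus strand), an inhibitory alpha subunit abundant in many tissues, stood at 18.3 CPM in the control, 88.4 and 109 CPM with forskolin, and 99.5 and 54.0 CPM with cAMP. All treated libraries were above the control, and the treated groups overlapped. It rose by 2.36 (SE 0.58, limma adjusted p = 0.000281) with forskolin and by 1.94 (SE 0.58, limma adjusted p = 0.0025) with cAMP as deposited. After scaling the values were 56.4 CPM in the control, 62.5 and 83.1 with forskolin, and 60.8 and 48.5 with cAMP, with differences of 0.35 (limma adjusted p = 0.529) and -0.05 (limma adjusted p = 0.933).

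Within Gnai2, the coding model Gnai2-003 was listed with a larger share in the forskolin libraries. It held 7.39% of the sum of Gnai2-001 and Gnai2-003 in the control, 32.8% and 38.9% with forskolin, and 8.63% and 6.68% with cAMP. Both forskolin libraries were thus apart from the other 3. The 5′ ends of these models lie 55 bases apart, and the pair was chosen after its values were seen. Their 3′ ends are the same, and how reads were apportioned between them is not given in the sources used here. Another coding model, Gnai2-008, held 13.4% of the gene in the control and close to none in the treated libraries. With 2 libraries against 2, an exact 2-sided permutation test cannot go below p = 0.333, so no test of this share was made. The retained-intron model Gnai2-009 held 17.0% of the gene in forskolin 1 and 3.71% to 6.93% in the other libraries.

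Gnai3 (ENSMUSG00000000001, chromosome 3, 108107280 to 108146146 on the minus strand), the second inhibitory alpha subunit, had a single model and stood at 17.5 CPM in the control, 52.1 and 33.2 CPM with forskolin, and 50.4 and 39.5 CPM with cAMP. It moved less than the typical gene as deposited. Its difference with forskolin was 1.202 (SE 0.58, limma adjusted p = 0.055), which missed the threshold, and it rose by 1.30 with cAMP (SE 0.58, limma adjusted p = 0.0387). The cAMP call was lost without forskolin 1, forskolin 2 or cAMP 1 (limma adjusted p = 0.11, 0.105 and 0.0576). The forskolin difference passed without either cAMP library (limma adjusted p = 0.0182 without cAMP 1 and 0.0167 without cAMP 2), and with a filter of 10 CPM or robust estimation (limma adjusted p = 0.047 and 0.0481). After scaling all 4 treated libraries lay below the control, at 25.3 to 36.9 CPM against 53.9 CPM, with differences of -0.80 (limma adjusted p = 0.142) and -0.69 (limma adjusted p = 0.205).

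Levels of different genes were compared per kilobase of transcript within a library, which does not depend on how libraries were scaled. Gnai2 ranked above Gnas, and Gnas above Gnai3, in the control, forskolin 1 and both cAMP libraries, and Gnas was first in forskolin 2 (98.0 CPM per kilobase against 61.9 for Gnai2). The ratio of Gnas to Gnai2 plus Gnai3 per kilobase was 0.530 in the control, 0.482 and 1.36 with forskolin, and 0.442 and 0.503 with cAMP. Forskolin 2 was alone above 1. With Gm20721 counted into Gnas the ratio was 1.86 in the control, 1.53 and 1.73 with forskolin, and 2.01 and 2.04 with cAMP, a narrower spread in which Gnas plus Gm20721 exceeded both inhibitory genes in every library. Gnai2 stood 2.39 times above Gnai3 per kilobase in the control, 4.003 and 6.08 times with forskolin, and 3.57 and 2.36 times with cAMP.

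Adcy7 (ENSMUSG00000031659, chromosome 8, 88272403 to 88329962 on the plus strand), a calcium-insensitive cyclase well known from blood and immune cells, was the most abundant of the 5 cyclases per kilobase in every library. It stood at 5.75 CPM in the control, 48.1 and 41.0 CPM with forskolin, and 34.5 and 24.9 CPM with cAMP. It rose by 2.75 (SE 0.57, limma adjusted p = 2.11e-05) with forskolin and by 2.167 (SE 0.57, limma adjusted p = 0.000685) with cAMP as deposited, and both calls held without any 1 treated library. After scaling it was 17.7 CPM in the control, 34.0 and 31.3 with forskolin, and 21.1 and 22.3 with cAMP. All 4 treated libraries were still above the control, but the differences of 0.85 (limma adjusted p = 0.109) and 0.28 (limma adjusted p = 0.61) did not pass. Pan-leukocyte markers, 6 of 6 listed and all above the floor, summed on the same scale to 145 CPM in the control, 264 and 240 with forskolin, and 159 and 166 with cAMP. Their part in the Adcy7 values was not tested.

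Adcy6 (ENSMUSG00000022994, chromosome 15, 98589994 to 98607633 on the minus strand), a cyclase inhibited by calcium and by Gi, had a single model. It stood at 3.91 CPM in the control, 17.6 and 20.4 CPM with forskolin, and 15.2 and 10.7 CPM with cAMP. It rose by 2.02 (SE 0.58, limma adjusted p = 0.00155) and 1.49 (SE 0.58, limma adjusted p = 0.0187) as deposited. The cAMP call was lost without forskolin 1 or forskolin 2 (limma adjusted p = 0.0605 and 0.0601). After scaling the level was 12.02 CPM in the control, 12.4 and 15.5 with forskolin, and 9.29 and 9.60 with cAMP, with differences of 0.20 (limma adjusted p = 0.75) and -0.32 (limma adjusted p = 0.587). All 605 exonic bases of Gm29331, an antisense model at up to 3.21 CPM, are also exonic in Adcy6.

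Adcy3 (ENSMUSG00000020654, chromosome 12, 4133103 to 4213525 on the plus strand), known for olfactory signalling and for the primary cilium, had no reads in the control. It stood at 8.08 and 9.90 CPM with forskolin and at 6.38 and 4.203 CPM with cAMP. Against the floor of 3 reads in the control library (0.0607 CPM), it was at least 148-fold higher with forskolin and at least 87.1-fold higher with cAMP, or at least 35.5-fold and 20.5-fold higher after scaling. The fitted rises, which depend on the pseudocount, were 3.31 (SE 0.61, limma adjusted p = 1.61e-06) and 2.63 (SE 0.61, limma adjusted p = 0.000108) as deposited. They were 2.92 (SE 0.47, limma adjusted p = 0.000411) and 2.27 (SE 0.47, limma adjusted p = 0.00231) after scaling. Adcy3 was the only one of the 8 called in both treatments on both scales. Its cAMP call was lost with quantile normalization (1.22, limma adjusted p = 0.085). With no control reads it could only rise, so the direction of its calls carries no information.

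Models of Adcy3 were divided differently from library to library. The retained-intron model Adcy3-004 held 48.7% of the gene in forskolin 1, 17.7% in forskolin 2, 13.6% in cAMP 1 and close to none in cAMP 2. The coding model that starts at 4134153 held 46.1% and 36.7% with forskolin and 75.7% and 90.5% with cAMP, and Adcy3-001 held 30.3% in forskolin 2 and under 1% in the other treated libraries. Cenpo, on the other strand, shares 1380 exonic bases with Adcy3 and was listed at 2.15 CPM in the control and 4.02 to 7.47 CPM with treatment.

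Adcy9 (ENSMUSG00000005580, chromosome 16, 4287529 to 4420498 on the minus strand), a cyclase that responds poorly to forskolin, also had no reads in the control. It stood at 1.24 and 3.58 CPM with forskolin and at 1.66 and 1.84 CPM with cAMP. It was at least 39.7-fold higher with forskolin and at least 28.9-fold higher with cAMP as deposited, and at least 9.66-fold and 7.15-fold higher after scaling. The fitted rises were 1.68 (SE 0.67, limma adjusted p = 0.0219) and 1.46 (SE 0.67, limma adjusted p = 0.0463), and without forskolin 2 the first was 1.16 (limma adjusted p = 0.242). The cAMP call was lost without any 1 treated library (limma adjusted p = 0.0685 to 0.0871). After scaling the differences were 1.40 (limma adjusted p = 0.0806) and 1.21 (limma adjusted p = 0.129).

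Adcy4 (ENSMUSG00000022220, chromosome 14, 55769058 to 55784042 on the minus strand), a cyclase stimulated by G protein beta and gamma subunits, was close to the limit of detection. It had no reads in the control and in cAMP 2, 1 read in forskolin 1, 35.0 reads (0.689 CPM) in forskolin 2 and 19.0 reads (0.368 CPM) in cAMP 1. The floor of 3 reads for the control is 0.0607 CPM, and no fold change was computed.

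**Figure D3:**
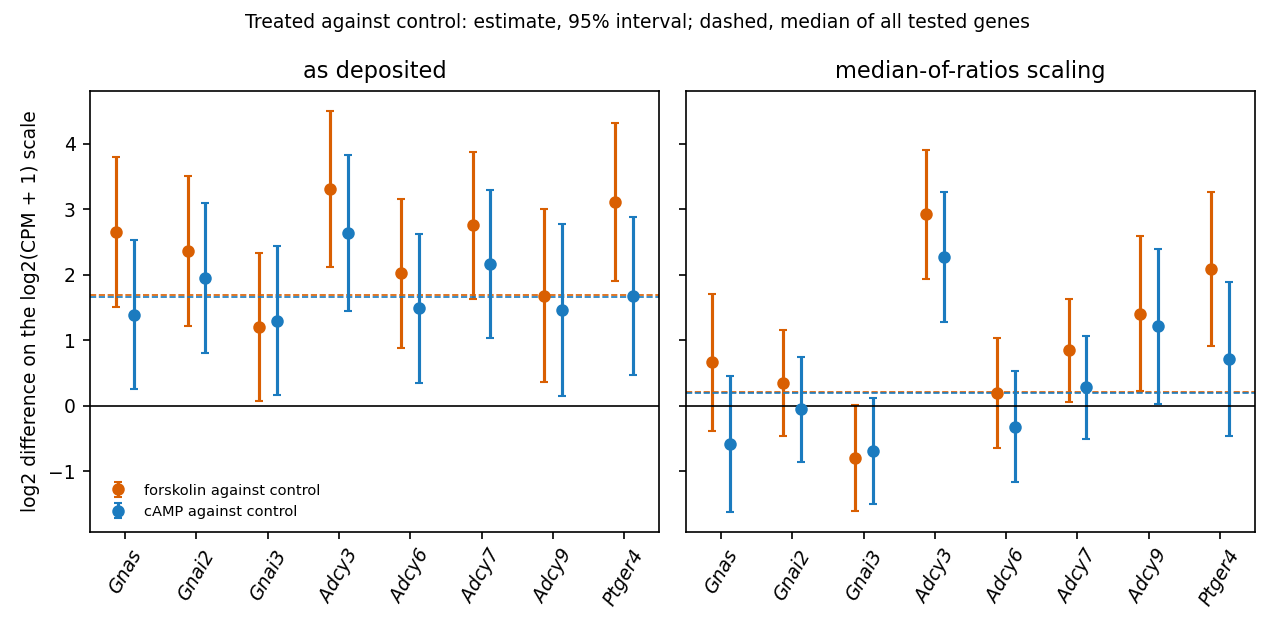
Fitted difference from the control (log2, limma, bars of the 95% interval) of each of the 8 tested genes for forskolin and cAMP, as deposited and after median-of-ratios scaling, with dashed lines at the median of all tested genes. As deposited every point is above 0, while after scaling Gnai3 is below 0 in both treatments and Adcy3 remains above 2.

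Shares of the summed level of these 5 cyclase genes were computed within each library. Adcy7 held 60.2% of the cyclase sum per kilobase in the control, 60.96% and 51.7% with forskolin, and 52.4% and 54.8% with cAMP. Adcy6 held 39.8% in the control and less in each treated library, at 21.6% and 24.7% with forskolin and 22.4% and 22.9% with cAMP. Adcy3, with no reads in the control, held 15.3% and 16.4% with forskolin and 20.98% and 17.1% with cAMP. Adcy9 held 2.02% and 5.74% with forskolin and 3.31% and 5.32% with cAMP. In the control, 0 Adcy3 reads among 477 cyclase reads allow a read share of up to 0.770% (95% Clopper-Pearson), where the treated libraries had read shares of 10.1% to 13.1%.

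Cyclase genes outside these 5 are not in the shares. Adcy1 had no reads in the control and stood at 0.412 and 4.04 CPM with forskolin and at 4.49 and 0.761 CPM with cAMP, above Adcy9 in forskolin 2 and cAMP 1. It was the only 1 of 3 listed that was tested, and it was called with cAMP as deposited (limma adjusted p = 0.0281) but not with forskolin (0.0562) or after scaling (limma adjusted p = 0.197 and 0.156). Adcy2 stood at 0.850 CPM in the control, where Adcy3 and Adcy9 had no reads, and at 0.0293 to 1.68 CPM with treatment.

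**Figure D4:**
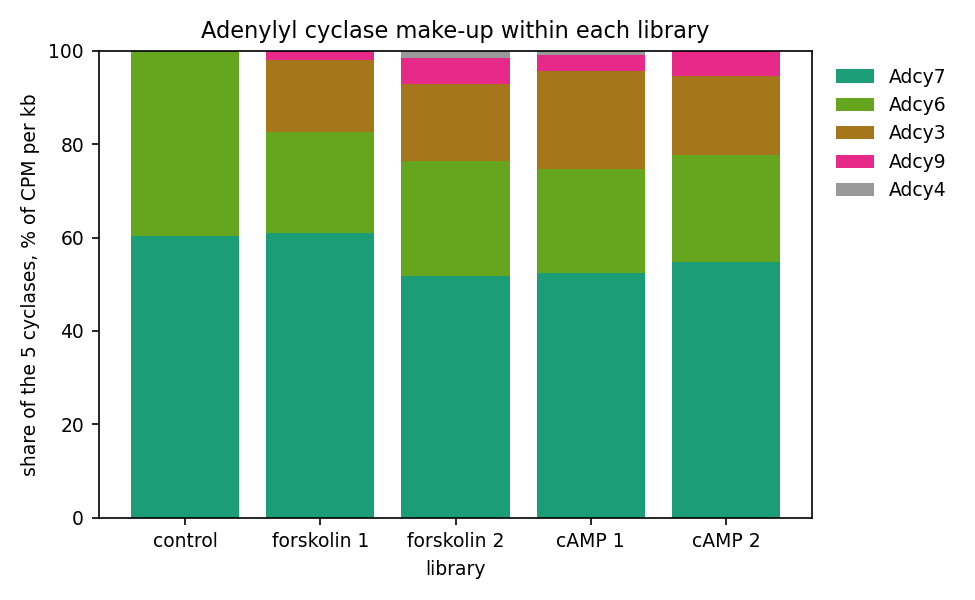
Share of each cyclase gene in the summed cyclase level per kilobase (percent), 1 bar per library. Adcy7 is the largest part of every bar, and the control bar is divided between Adcy7 (60.2%) and Adcy6 (39.8%).

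Forskolin, which acts on the cyclases, and cAMP, their product, were then compared with each other, the only comparison with 2 libraries on each side. None of the 8 tested genes was called by limma on either scale, where 0.378% of all tested genes were called as deposited and 0.443% after scaling. Gnas and Ptger4 had an unadjusted p under 0.05 on both scales, as did 937 of the 13764 genes as deposited and 1555 after scaling. Ptger4 was 1.43 higher with forskolin (95% interval 0.44 to 2.41, limma adjusted p = 0.317) and Gnas was 1.26 higher (95% interval 0.33 to 2.19, limma adjusted p = 0.389). Without cAMP 1 the Ptger4 difference was 2.47 and was called (limma adjusted p = 0.0336), and without cAMP 2 it was 0.38. For Gnas the scaled difference was 1.24 (limma adjusted p = 0.224). Without forskolin 1 it was 2.06 and was called (limma adjusted p = 0.000164), a fit in which only the cAMP group kept 2 libraries and forskolin 2 was assumed to vary like them, and without forskolin 2 it was 0.42 (limma adjusted p = 0.874). Summed with Gm20721, Gnas differed by 0.20 (95% interval -0.75 to 1.16, limma adjusted p = 0.998) between the treatments.

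The other 6 genes differed by less. Adcy3 was 0.68 higher with forskolin (95% interval -0.29 to 1.65), Adcy7 was 0.58 higher (-0.34 to 1.505), Adcy6 0.53 (-0.39 to 1.46), Gnai2 0.41 (-0.52 to 1.35) and Adcy9 0.22 (-0.86 to 1.29), while Gnai3 was at -0.10 (-1.02 to 0.83). Each of these intervals includes 0 and leaves room for a difference in either direction. As deposited, both forskolin libraries lay above both cAMP libraries for Adcy3, Adcy6, Adcy7, Gnas and Ptger4, 5 of 8. For the rest of the 8 the groups overlapped. Counting both directions, the groups did not overlap for 33.6% of all tested genes.

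**Figure D5:**
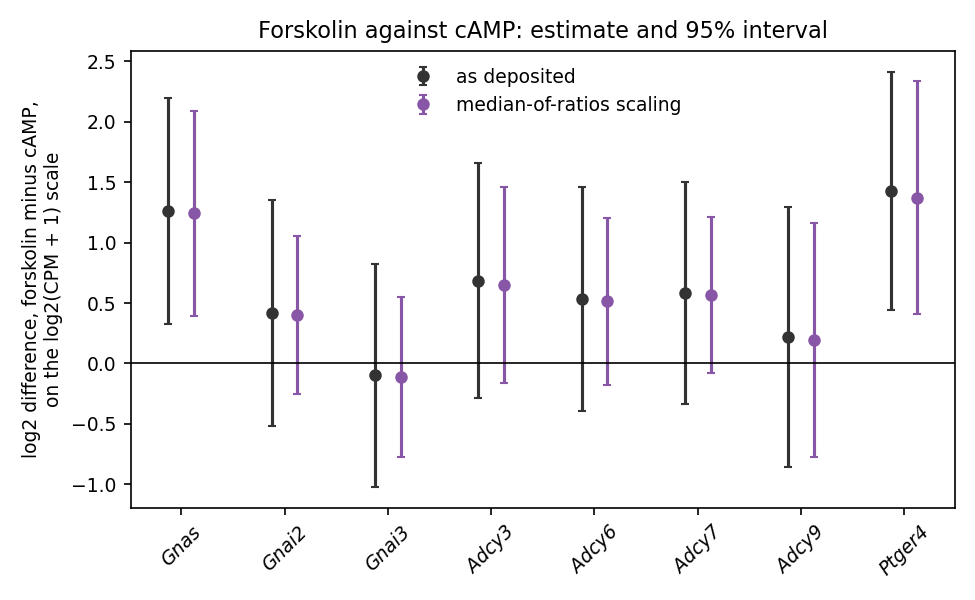
Fitted difference of forskolin from cAMP (log2, limma, 95% intervals) for the 8 tested genes, as deposited and after median-of-ratios scaling. Only the intervals of Gnas and Ptger4 lie above 0, and neither gene passes after adjustment.

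The profile of Gnas over the 5 libraries was most like those of Ankrd11, Abhd2 and Capn15, with root mean square differences of 0.25, 0.26 and 0.29 (log2) after scaling. Ankrd11, a chromatin regulator, stood at 16.6 CPM in the control, 108 and 222 with forskolin, and 76.9 and 55.9 with cAMP. All 3 shared the high value of forskolin 2, where Abhd2 and Capn15 stood at 59.5 and 21.8 CPM.

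Other genes of the pathway are set beside the shares of all tested genes called higher. These were 66.3% with forskolin and 65.1% with cAMP as deposited, and 14.9% and 15.4% after scaling. Of the 13764 tested genes, 47 and 60 were called lower as deposited, and 934 and 995 after scaling. Of other alpha subunits, 6 of 8 tested rose with forskolin and 5 with cAMP. Of beta subunits, 2 of 3 rose with each, and of gamma subunits, 2 of 6 rose with each. None fell, but with 1 control library every tested gene had to reach 1 CPM in a treated library. Gnaz (1.52 CPM in the control, at most 0.908 CPM with treatment) and Gnao1 (1.17 and at most 0.557 CPM) were therefore not tested. The gamma subunit medians, 0.89 and 0.74, were below the medians of all genes, 1.69 and 1.66. After scaling, 1 alpha subunit rose and 1 fell with forskolin, 2 rose and 1 fell with cAMP, no beta subunit rose, 1 beta subunit (Gnb4) fell with cAMP (-1.502, limma adjusted p = 0.0468), and 2 gamma subunits fell with each treatment. Gnaz, Gnao1, Gnb4 and, among the cyclases above, Adcy2 are named outside the naming rule, after their values were seen. Gna11, a Gq-class subunit, stood at 1.82 CPM in the control, 14.4 and 21.8 with forskolin, and 26.3 and 16.2 with cAMP, and on the scaled values it rose with cAMP (1.30, limma adjusted p = 0.0322) but missed the threshold with forskolin (1.09, limma adjusted p = 0.069). Gnal, the other gene for a stimulatory alpha subunit, had no reads in the control, stood at 3.21 to 7.16 CPM in the treated libraries and rose on the scaled values too (limma adjusted p = 0.01 and 0.00403). The beta subunit genes Gnb1 and Gnb2 were at 76.6 CPM or more in every treated library, and their scaled differences lay between -0.06 and 0.06.

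The list of other Gs receptors also holds the receptor accessory proteins Ramp1 and Ramp3. Both were among its risers with forskolin as deposited, and Ramp3 was with cAMP. Of the 13 genes tested on this list, 7 rose with forskolin and 3 with cAMP as deposited. After scaling, 2 rose and 2 fell with each. Both as-deposited counts are below the shares of all genes. The median changes as deposited were 1.39 and 0.71, below the 1.69 and 1.66 of all genes, or 1.70 and 1.10 with the 2 genes without control reads at their bounds. Those that rose on both scales were the melanocortin receptor Mc5r and the adrenergic receptor Adrb3. Mc5r, a receptor of sebaceous glands, stood at 0.0405 CPM in the control, under the floor of 3 reads (0.0607 CPM). With forskolin it was at 2.82 and 7.33 CPM, and with cAMP at 6.503 and 8.75 CPM. The sebaceous list, 10 of 10 listed and with Mc5r among its genes, summed to 180 CPM in the control. Its sum was 1322 and 2206 CPM with forskolin, and 4387 and 4997 CPM with cAMP. The part of these glands in the Mc5r values was not tested. Adrb3 had no reads in the control and stood at 4.04 to 6.27 CPM in the treated libraries (limma, scaled: adjusted p = 0.0037 and 0.00522). The list of Gi receptors also holds the atypical chemokine receptor Ackr3 and receptors, such as Lpar6, that couple to other G proteins. Of its 18 tested genes, 9 rose with forskolin and 7 with cAMP as deposited, again below the shares of all genes. After scaling 4 rose and 2 fell with forskolin, and 2 rose and 4 fell with cAMP, with Lpar3, a lysophosphatidic acid receptor, rising in both (limma adjusted p = 0.00158 and 0.00326). It had no reads in the control and was at least 106-fold and 81.4-fold higher as deposited.

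Of 25 regulators of G proteins and receptors, 18 rose with forskolin and 16 with cAMP as deposited, and none fell on either scale. These counts are near the shares of all genes. The median changes were 1.84 and 1.80 beside 1.69 and 1.66 for all genes, or 2.53 and 2.16 with the 4 genes without control reads at their bounds, and 4 and 3 genes rose after scaling. Adrbk2, which encodes a receptor kinase that desensitises active receptors, had no reads in the control and stood at 24.6 and 13.5 CPM with forskolin and at 13.5 and 13.1 CPM with cAMP, at least 314-fold and 219-fold higher as deposited, and it rose on the scaled values too (limma adjusted p = 3.89e-05 and 5.59e-05). Rgs1, which speeds GTP hydrolysis on Gi and Gq subunits, stood at 0.749 CPM in the control, 23.7 and 10.4 with forskolin, and 9.67 and 9.62 with cAMP, and on the scaled values it rose with forskolin (limma adjusted p = 0.00869) but missed the threshold with cAMP (limma adjusted p = 0.056). Ric8b, a chaperone of stimulatory alpha subunits, stood at 0.0607 CPM in the control, which is the floor of 3 reads. It was at 9.42 and 6.22 CPM with forskolin, and 8.48 and 8.02 CPM with cAMP (limma, scaled: adjusted p = 0.00143 and 0.000843). In none of the lists of other pathway genes was a gene called between forskolin and cAMP by limma on either scale. The sebaceous marker list is not one of these.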

How the data were processed

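RNA sequencing gave 5 libraries in 3 groups. The submitters' processing notes name bcl2fastq 2.17, STAR and Partek. Settings, build and annotation are not given in the sources used here. Values deposited by the authors are CPM of 59869 transcripts, a unit read from the values, and 90.8% of matched transcripts had the same start and end in GENCODE M21 (GRCm38). An offset stood in place of 0, and depths were estimated by taking it as 0.0001 read. Transcript values were summed per gene, without the 3 that had no gene identifier. Positions are as in the table, and exons come from that annotation, which held 98.3% of the transcripts.

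limma 3.58.1 in R 4.3.3 was fitted with an intensity trend to log2(CPM + 1). A gene was tested where 2 or more libraries reached 1 CPM. With 1 control library, a tested gene had to reach 1 CPM in a treated library. Genes high only in the control were thus left out, and tested genes with no control reads could only rise against it. All 5 libraries entered in 3 groups, tests were 2-sided, and Benjamini-Hochberg adjustment ran over 13764 genes at 0.05. Changes of low genes are understated on this scale. With 2 residual degrees of freedom against a prior of 360 (16.4 after scaling), a gene's spread came mostly from all genes, and the lone control library was taken to vary like the treated libraries. Median-of-ratios size factors used 11935 genes above 0.05 CPM in every library. Same-numbered treated libraries did not deviate together (correlation -0.05), so no pairing was used. Floors and intervals cover counting error only.

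The genes and lists were chosen with earlier results of these data known. Named pathway genes are called genes of each list, up to 2 per comparison and direction, with the smallest p and no overlap of libraries. A part of them is described. The genes nearest in profile to Gnas and Ptger4 are up to 3 each, and 1 of them is not reported here.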

Additional observations from a re-analysis of the deposited data

How the results depend on the processing

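Scaling decided most calls against the control. With forskolin, 2, 2 and 1 of the 8 genes were called after median-of-ratios scaling, scaling to nuclear reads and quantile normalization, against 7 as deposited, and over all genes 2985, 3076 and 1902 against 9177. With cAMP the counts were 1, 1 and 0 against 8, and 3121, 3101 and 2045 against 9025. Under the same 3 scalings the sign turned for Gnai3 with forskolin (-0.80, -0.72 and -0.77) and, with cAMP, for Gnas (-0.58, -0.56 and -0.61), Gnai2 (-0.054, -0.032 and -0.074), Gnai3 (-0.69, -0.67 and -0.70) and Adcy6 (-0.32, -0.30 and -0.38). The cause was not tested. With cAMP, 3 of 8 genes were called with a pseudocount of 5, 3 of 9 without a filter, and 5 of 5 tested with a filter of 10 CPM. Over all genes these settings called 7472 of 13764, 6326 of 21667 and 6285 of 7321.

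Leaving out 1 treated library gave 4 to 7 called genes with cAMP and 6 to 8 with forskolin. Over all genes, 5283 (without forskolin 1) to 10253 were called with forskolin. Between forskolin and cAMP, 0 to 1 of the 8 genes and 11 to 70 of all genes were called. The sign turned for Gnai2 without cAMP 2 (-0.019 to 0.85 over the 4 libraries), Gnai3 without forskolin 2 or cAMP 1 (-0.42 to 0.22) and Adcy9 without forskolin 2 (-0.30 to 0.74). Over all genes that comparison gave 52 calls, 16 with a pseudocount of 0.1, 0 without a filter, 33 with a filter of 10 CPM and 6 with coding transcripts only. A replicate block in the treated libraries gave 55 calls over all genes and 0 of the 8, and with median-of-ratios scaling, chosen after seeing the data, 185 and 0.

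Also chosen after seeing the data, median-of-ratios scaling was combined with leaving out libraries. The scaled Gnas difference with forskolin was -0.16 without forskolin 2 and 1.48 without forskolin 1, and with cAMP it was -0.58 without either forskolin library, -0.58 without cAMP 1 and -0.59 without cAMP 2. For Ptger4 with cAMP it was -0.063 without cAMP 1. Gnas summed with Gm20721 gave -0.16 with forskolin and -0.35 with cAMP after scaling. Depth limits Adcy4 and Adcy9, and 1 control library leaves the spread among controls unmeasured.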
